A study of Mus musculus and Homo sapiens with 12 samples.

Results

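The 10 genes described here are core components of the Notch pathway: the receptors NOTCH1, NOTCH2, NOTCH3 and NOTCH4, the ligands DLL4 and JAG1, the DNA-binding effector RBPJ, and the target genes HES1, HEY1 and NRARP. They were picked by symbol as a list, with earlier results of these data known, and all 10 were found among the 55487 mouse genes and the 78932 human genes counted. For the mouse, 6 symbols came from the authors' deposited normalized table and 4 (Notch4, Hey1, Dll4 and Nrarp) from the GENCODE M21 annotation. All 10 human symbols came from the deposited table. Gene expression was measured by bulk RNA sequencing in 12 libraries, 3 per group, and the question asked of them is how these genes differ when DDX21, a nucleolar RNA helicase of the DEAD-box family, is removed from blood stem and progenitor cells.

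The mouse groups were live lineage-negative, Kit-positive (LK) fetal liver cells from E13.5 embryos. WT embryos were Ddx21f/f, with both copies of the gene floxed and no Cre in the label, and conditional knockout (cKO) embryos were Ddx21f/f with Vav-Cre, which the study's design text calls Vav1-Cre. Both genotypes therefore carry the floxed alleles, and Vav1 regulatory sequence drives Cre in blood cells. The human groups were blood cells made from H1, an embryonic stem cell line, with the STEMdiff Hematopoietic Kit. They received a lentivirus with mCherry and a short hairpin, named shNC in the controls and shDDX21 where it targets DDX21, and cells carrying the hairpin and CD34, CD45 and CD43 were sorted 2 days after transduction. All human libraries come from 1 cell line. The labels do not say whether libraries of a group came from separate embryos or cultures, so p-values measure only the spread between these libraries, which may be technical.

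Notch receptors are single-pass proteins that are cut after a ligand on a neighbouring cell binds them. The released intracellular part enters the nucleus, joins RBPJ and Mastermind-like coactivators, and switches on genes such as the HES and HEY repressors. In blood development Notch1 is needed for the first stem cells to emerge from endothelium and, later, for commitment to the T-cell lineage.

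Sequences before RefSeq transcript starts of 4 mouse members show what these stretches do and do not share. The Notch3 and Nrarp stretches lie before the counted gene. The Notch1 and Rbpj stretches lie inside it, before an internal start. Notch3 is shown because it had the largest change, Notch1 as the receptor beside it in level, and Rbpj and Nrarp because each held a motif that no other matched member had. Each line gives bases before the RefSeq transcript start (build GRCm38.p6), 5′ to 3′ on the strand of the gene, with motif matches in capitals.
Notch3, chr17:32166891-32167140, minus strand: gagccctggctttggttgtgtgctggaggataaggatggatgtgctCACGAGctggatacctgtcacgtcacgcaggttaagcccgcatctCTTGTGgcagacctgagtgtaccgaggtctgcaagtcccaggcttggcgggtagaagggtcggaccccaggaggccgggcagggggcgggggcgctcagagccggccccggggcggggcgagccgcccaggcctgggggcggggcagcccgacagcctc
Notch1, chr2:26503825-26504072, minus strand: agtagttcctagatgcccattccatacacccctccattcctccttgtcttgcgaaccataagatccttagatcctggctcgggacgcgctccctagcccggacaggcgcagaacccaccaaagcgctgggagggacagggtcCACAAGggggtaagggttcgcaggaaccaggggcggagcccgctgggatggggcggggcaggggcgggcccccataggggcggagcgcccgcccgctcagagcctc
Nrarp, chr2:25180508-25180757, plus strand: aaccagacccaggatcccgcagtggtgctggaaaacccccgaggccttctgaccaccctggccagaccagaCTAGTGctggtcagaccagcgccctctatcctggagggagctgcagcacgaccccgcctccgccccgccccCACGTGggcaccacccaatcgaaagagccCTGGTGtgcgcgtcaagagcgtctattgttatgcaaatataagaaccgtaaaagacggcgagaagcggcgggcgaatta
Rbpj, chr5:53590096-53590213, plus strand: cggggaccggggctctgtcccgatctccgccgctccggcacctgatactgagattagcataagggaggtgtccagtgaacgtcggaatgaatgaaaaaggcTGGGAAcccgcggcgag
The motifs searched on both strands were the RBPJ core TGGGAA, the E-box CACGTG read by HEY-type factors, and the N-box CACNAG read by HES-type factors, and no match of one overlapped a match of another in these windows. Of the 10 members, 8 had an entry in the RefSeq promoter table, with 9 windows of 250 bases (Rbpj has a pair of starts). Hes1 and Hey1 had no entry, so of the target genes only Nrarp was searched. The RBPJ core was found in 1 of the 8, Rbpj itself, against 21.6% of all 32851 promoter windows. The copy printed begins 149 bases before the transcript start, and a match on the opposite strand lies in a stretch left out because an annotated exon covers it. The E-box was found in Nrarp only, 108 bases before the start, against 6.02% of windows. N-boxes were found in 5 members, Notch1, Notch2, Notch3, Dll4 and Nrarp, against 36.7% of windows. In Notch3 they begin 204 and 159 bases before the start and in Notch1 108 bases before it. These are letter matches in short windows and say nothing about binding.

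Gene counts per library ranged from 21116079 to 23898130 in the mouse and from 15289510 to 19798608 in the human experiment. Levels between libraries are given as CPM, the count scaled to library size with the TMM factors of edgeR. The targeted gene fell in both: Ddx21 went from 1424 ± 12.5 to 280.2 ± 3.62 CPM (mean ± SD, n = 3), and DDX21 from 470.1 ± 6.05 to 68.3 ± 1.14 CPM. Their log2 fold changes were -2.35 (SE 0.033) and -2.78 (SE 0.029), with adjusted p-values of 5.91e-08 and 1.33e-70 from the quasi-likelihood F-test of edgeR, Benjamini-Hochberg adjusted, the test used throughout with a threshold of 0.05. Of 14918 mouse genes tested, 3083 were higher and 2360 lower in cKO (3565 and 1612 when scaled by total counts alone). Of 20188 human genes tested, 5105 were higher and 5526 lower in shDDX21 (6255 and 4635 with upper-quartile scaling). Replicates varied more in the mouse, with a biological coefficient of variation of 10.5% against 2.23%, so a change of a given size passes the test more easily in the human libraries.

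In mouse LK cells the Notch genes that passed the test were all higher in cKO. Notch3, Hes1 and Jag1 rose, none fell, and Notch1, Notch2, Notch4 and Rbpj were tested without passing. That is 3 of the 7 tested, beside 36.5% of all tested genes called in either direction and 20.7% called higher. Hey1, Dll4 and Nrarp had too few counts to be tested. The median log2 fold change of the 7 was 0.77, beside 0.00 over all tested genes, and 6 of the 7 were above 0. In human H1-derived cells the picture was the reverse. There 9 of 10 members fell and none rose, beside 52.7% of tested genes called in either direction and 27.4% called lower, with a median log2 fold change of -0.57 beside 0.01 over all genes. HEY1 was the member that did not pass.

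**Figure D1:**
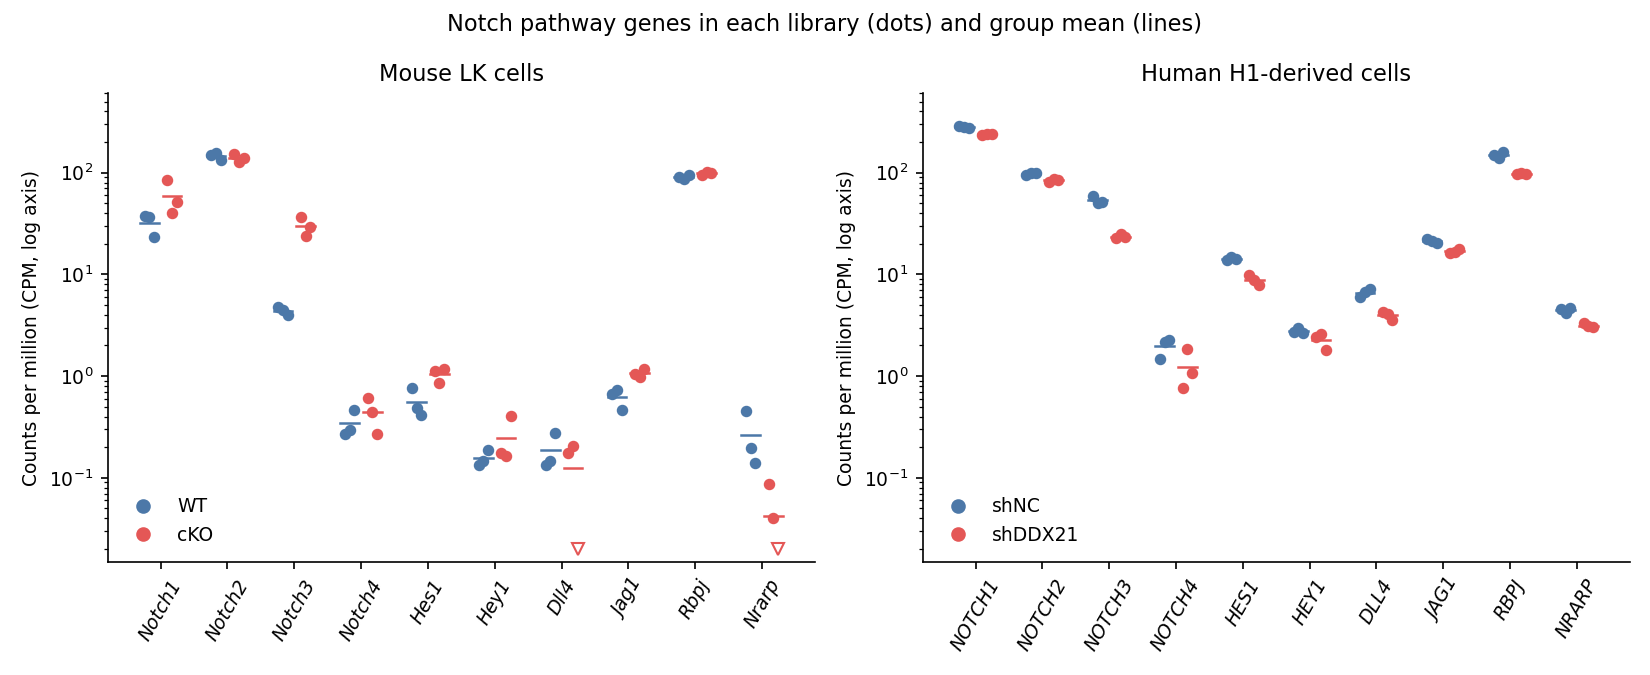
CPM (log axis) of the 10 genes in each library (dots) with group means (lines), mouse on the left and human on the right; open triangles mark a library with 0 counts. Mouse Notch3 lies between 3.94 and 4.80 CPM in WT and between 23.9 and 36.8 in cKO, while the human NOTCH3 libraries lie lower in shDDX21 (22.6 to 24.8) than in shNC (50.5 to 58.5).

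Among the receptors, Notch3, best known from the mural cells of arteries, changed most. Mouse Notch3 (ENSMUSG00000038146, mm10 chromosome 17, 32120820 to 32166852, minus strand, protein-coding) was counted 107, 91 and 85 times in WT against 845, 589 and 637 times in cKO, which is 4.80, 4.43 and 3.94 CPM against 36.8, 23.9 and 28.9 CPM. Every cKO library lay above every WT library, and the lowest cKO value was several times the highest WT value. The rise was 6.79-fold, a log2 change of 2.76 (SE 0.18, adjusted p = 3.64e-05). Without any 1 library it remained called, with an adjusted p of at most 0.000681. A gene on the opposite strand, Gm17276, overlaps 6.0% of the exon length of Notch3 and had 204 counts in all 6 libraries together against 2354 for Notch3; whether counting used strand is not given in the sources used here.

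Human NOTCH3 (ENSG00000074181, hg38 chromosome 19, 15159038 to 15200995) moved the opposite way. Its level was 58.5, 50.5 and 52.0 CPM in shNC and 22.6, 24.8 and 23.2 CPM in shDDX21. The groups did not overlap, and the hairpin libraries held less than the lowest control library. The log2 change was -1.20 (SE 0.059, 2.29-fold lower, adjusted p = 5.56e-29), and NOTCH3 was the only member that was also changed by at least 2-fold in the human cells, as Notch3 was in the mouse cells. The fold differed between the experiments by 3.95 on the log2 scale (SE 0.2, adjusted p = 2.47e-08 for the interaction in edgeR).

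Notch1 is the receptor required for blood stem cell emergence and T-cell commitment. Mouse Notch1 (ENSMUSG00000026923, chromosome 2, 26457903 to 26516663, minus strand) stood at 37.1, 36.5 and 23.3 CPM in WT and at 84.1, 40.2 and 50.9 CPM in cKO. All cKO libraries were higher than all WT libraries, but the 3 of each group were spread widely, with a coefficient of variation of 24.1% in WT and 39.2% in cKO. The log2 fold change of 0.85 (SE 0.29) did not pass the test (adjusted p = 0.0555), and it passed without cKO replicate 2 (1.08, adjusted p = 0.015). It fell to 0.51 without cKO replicate 1.

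Within each group, Notch1 varied along with a difference between libraries in base composition. The mouse libraries differed in the level of transcripts rich in G and C, and the cause was not tested. For genes of 55 to 60% GC the median deviation from the group mean was 0.12, 0.071 and -0.2 on the log2 scale in WT 1, 2 and 3. In cKO 1, 2 and 3 it was 0.21, -0.21 and 0.0015. Longest transcripts of Notch1, Notch3 and Notch4 are 57.1%, 59.6% and 61.2% GC, above the median of 49% over tested genes, while Hes1 (50.7%), Jag1 (48.8%) and Rbpj (43.7%) lie nearer to it. With a GC curve fitted to each library and used as an offset, an alternative chosen after seeing the data, Notch1 was 31.7, 32.5 and 25.3 CPM in WT and 75.8, 49.2 and 54 CPM in cKO, with a log2 fold change of 1.00 (adjusted p = 0.00112). Notch3 under the same offset stood at 3.77, 3.72 and 4.45 CPM in WT against 32.1, 32.2 and 31.9 CPM in cKO, a log2 fold change of 3.02. Its 3 cKO libraries lay closer together than as scaled. In WT the spread did not narrow in the same way: replicate 3 went from the lowest value (3.94 CPM) to the highest.

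**Figure D2:**
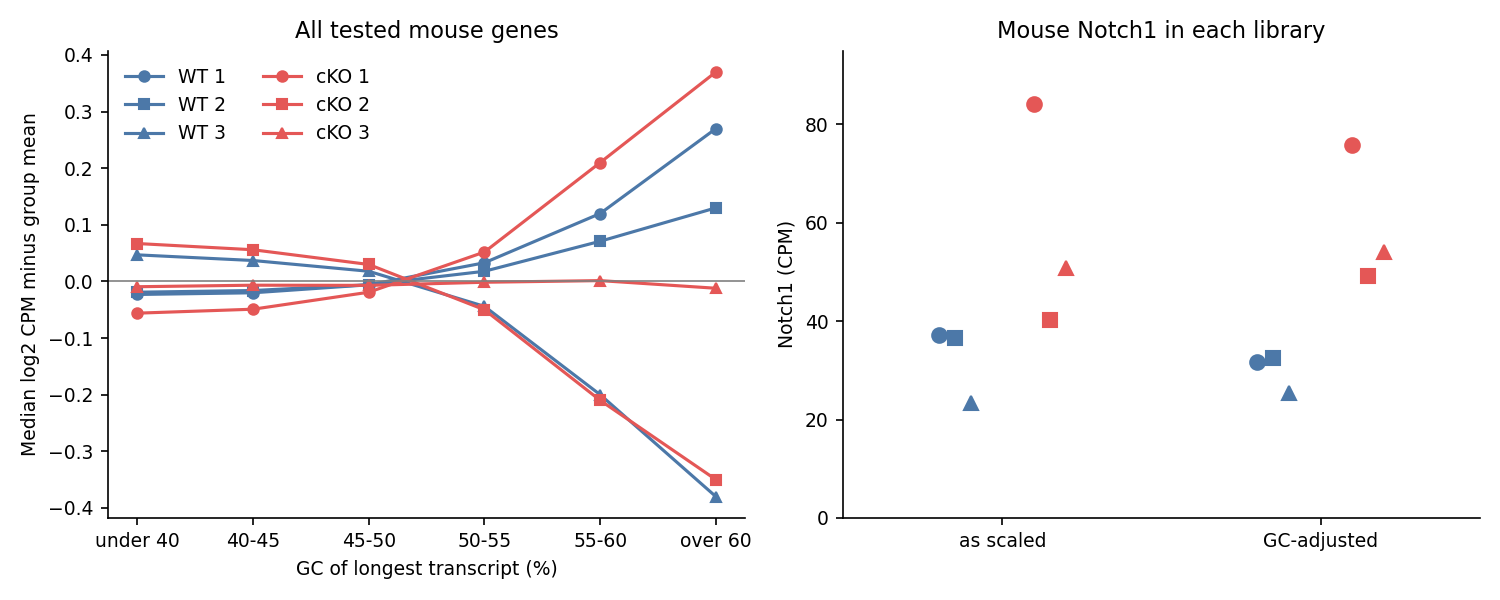
Left, the median over genes of each mouse library's log2 CPM minus its group mean, in 6 classes of transcript GC content. Right, Notch1 in CPM (linear axis) in the 6 libraries as scaled and after the GC offset. Within each group, Notch1 (57.1% GC) as scaled followed the library order of the 55 to 60% class. Across groups it did not: cKO 2 (-0.21) lay above WT 1 (0.12), at 40.2 against 37.1 CPM. The highest and lowest values were in cKO 1 and WT 3 both as scaled (84.1 and 23.3 CPM) and after the offset (75.8 and 25.3 CPM).

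Human NOTCH1 (ENSG00000148400, chromosome 9, 136494433 to 136546048) was the most abundant member. It stood at 285.0, 278.3 and 277.3 CPM in shNC and 236.4, 242.2 and 237.2 CPM in shDDX21. The groups did not overlap, and the drop was small, at -0.23 on the log2 scale (SE 0.026, 14.9% lower, adjusted p = 1.58e-12). The mouse and human folds of NOTCH1 differed by 1.09 (SE 0.31, adjusted p = 0.0115).

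Notch2, the receptor needed for marginal-zone B cells in the adult spleen, changed little. In mouse cells it was 150.2, 156.0 and 133.9 CPM in WT and 151.0, 126.1 and 139.6 CPM in cKO, overlapping groups whose log2 fold change was -0.08 (SE 0.081, adjusted p = 0.476). Human NOTCH2 fell from 94.1, 98.4 and 99.8 to 81.4, 86.0 and 85.1 CPM, by 0.21 on the log2 scale (SE 0.037, adjusted p = 1.16e-06), again without overlap. The interaction did not pass (0.13, SE 0.097, adjusted p = 0.264). Human NOTCH2 shares near-identical sequence with the partial copies NOTCH2NLA, NOTCH2NLB and NOTCH2NLC, so its counts are uncertain to that extent. Those copies had log2 fold changes of 0.41, 0.40 and -0.12 and at most 7.40 CPM on average in shNC, against 97.4 CPM for NOTCH2.

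Notch4, a receptor known from endothelium, was the least abundant receptor in every group. Mouse Notch4 was counted 6, 6 and 10 times in WT against 14, 11 and 6 times in cKO, and the groups overlapped (log2 fold change 0.37, SE 0.40, adjusted p = 0.498). A difference could not be resolved at this depth. Human NOTCH4 was counted 28, 33 and 40 times in shNC against 15, 31 and 19 times in shDDX21, and these ranges also overlap. GPSM3, a gene on the same strand with 2212 counts over the 6 libraries against 166 for NOTCH4, overlaps 1.0% of its exon length. The NOTCH4 log2 fold change of -0.68 (SE 0.28) passed narrowly (adjusted p = 0.0352). It no longer did so without shNC replicate 2 (0.101), shNC replicate 3 (0.145), shDDX21 replicate 1 (0.263, log2 fold change -0.42) or shDDX21 replicate 3 (0.0972).

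Levels of different genes were compared per exon length, as TPM (transcript abundance per length, scaled to one total in every library) computed from the counts and the deposited lengths. In mouse WT cells the receptor sum was 60.9 ± 4.71 TPM (SD, n = 3) and Notch2 made up 82.8% ± 2.02 of it, Notch1 13.6% ± 2.13 and Notch3 3.30% ± 0.177. In cKO the sum was 81.2 ± 12 TPM and the shares were 62.7% ± 5.03, 19.3% ± 4.2 and 17.7% ± 0.848. Library by library, the Notch3 share was 3.46%, 3.11% and 3.34% in WT and 18.5%, 16.8% and 17.7% in cKO. Human cells had another make-up, with a receptor sum of 128.1 ± 2.73 TPM in shNC and 89.8 ± 2.19 TPM in shDDX21. The NOTCH1 share was 65.6% ± 0.3 in shNC and 71.3% ± 0.605 in shDDX21, larger although the NOTCH1 level fell. Changes between groups can differ between TPM and CPM: NOTCH1 went from 84.0 to 64.1 TPM and from 280.2 to 238.6 CPM. The NOTCH3 share was 16.7% ± 1.04 in shNC and 9.37% ± 0.271 in shDDX21. The NOTCH3 share of the shNC libraries was thus close to that of the mouse cKO libraries, a comparison across species that carries no test.

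**Figure D3:**
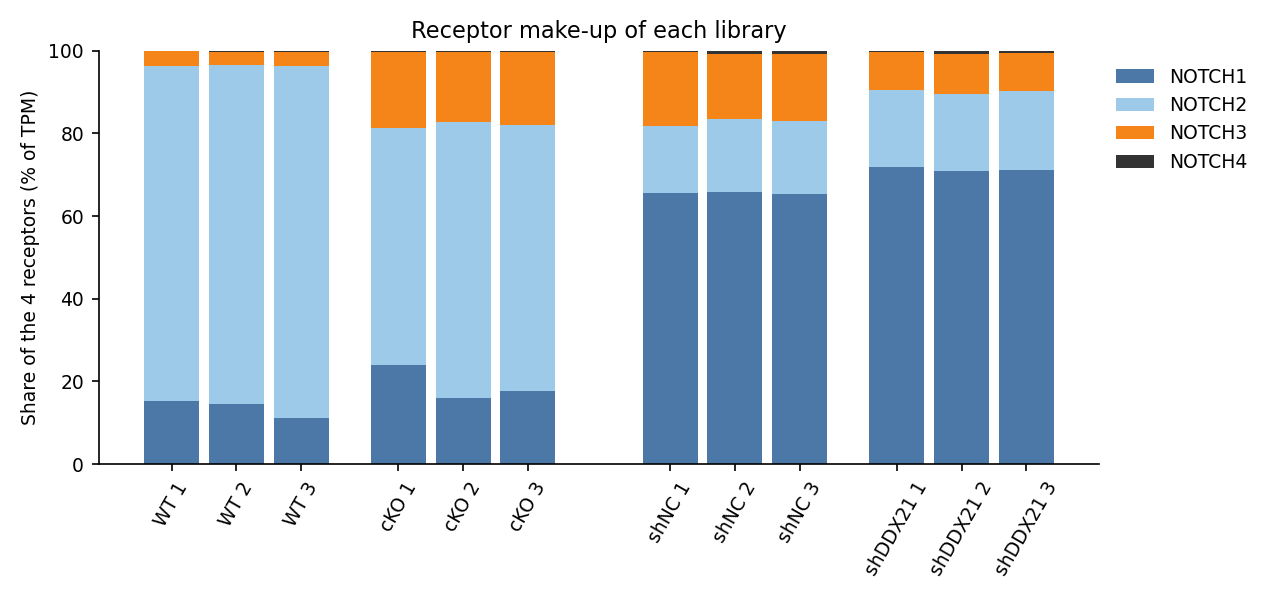
Share of each receptor in the summed TPM of the 4 receptors, one stacked bar per library; the axis runs from 0 to 100%. Notch3 fills 3.11% to 3.46% of the WT bars and 16.8% to 18.5% of the cKO bars, and NOTCH3 fills 15.9% to 17.9% of the shNC bars and 9.16% to 9.67% of the shDDX21 bars.

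Both ligands of the set were scarce in mouse LK cells. Jag1 was counted 15, 15 and 10 times in WT against 24, 24 and 26 times in cKO, that is 0.673, 0.730 and 0.464 CPM against 1.05, 0.973 and 1.18 CPM. The groups did not overlap, and the log2 fold change of 0.77 (SE 0.24) passed the test (adjusted p = 0.0392). The call rested on all 6 libraries: without any 1 of them, WT replicates 1, 2 and 3 or cKO replicates 1, 2 and 3, the adjusted p was 0.0843, 0.0611, 0.109, 0.0733, 0.0615 and 0.122 in that order, with the fold change above 0 each time, and in DESeq2 it was 0.24. Dll4, the ligand of arterial endothelium and thymic epithelium, was counted 3, 3 and 6 times in WT against 4, 5 and 0 times in cKO. The ratio of summed counts was 0.725, with an exact 95% interval from 0.27 to 1.88 that covers counting error only, so no difference could be resolved. Gm14207 on the opposite strand, with 24 counts in all against 21 for Dll4, overlaps 5.6% of it.

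The same ligands were better measured in the human cells and both fell. JAG1 was 22.3, 21.3 and 20.4 CPM in shNC and 16.2, 16.7 and 17.8 CPM in shDDX21, a drop to 0.791 of the control level (log2 fold change -0.34, SE 0.077, adjusted p = 0.000131). DLL4 was 5.93, 6.66 and 7.15 CPM against 4.31, 4.09 and 3.59 CPM, a drop to 0.610 of the control level (log2 fold change -0.71, SE 0.14, adjusted p = 1.99e-05). Neither gene's groups overlapped. The mouse and human folds of JAG1 differed by 1.10 (SE 0.21, adjusted p = 0.00072), and DLL4 could not be compared because the mouse gene was not tested.

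RBPJ, through which every Notch receptor acts on DNA, was abundant in both systems. Mouse Rbpj (chromosome 5, 53466152 to 53657362) was 90.0, 87.3 and 95.5 CPM in WT and 94.0, 102.0 and 99.2 CPM in cKO. The ranges overlapped slightly, and the log2 fold change of 0.11 (SE 0.052) did not pass (adjusted p = 0.125). Human RBPJ (ENSG00000168214, chromosome 4, 26163455 to 26435131) fell from 148.1, 140.3 and 158.0 CPM to 96.1, 99.2 and 96.1 CPM. The 3 hairpin libraries agreed closely, with a coefficient of variation of 1.81%, and lay well below the controls. RBPJ was 34.8% lower in shDDX21 (log2 fold change -0.62, SE 0.035, adjusted p = 6.38e-26), and the difference from the mouse fold was 0.73 (SE 0.071, adjusted p = 4.51e-06).

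Of the targets, Hes1 encodes a transcriptional repressor that is among the most direct readouts of Notch signalling. Mouse Hes1 (ENSMUSG00000022528, chromosome 16, 30064384 to 30067796) was counted 17, 10 and 9 times in WT against 26, 21 and 26 times in cKO, that is 0.762, 0.487 and 0.418 CPM against 1.13, 0.851 and 1.18 CPM. The lowest cKO library lay just above the highest WT library. The log2 fold change of 0.90 (SE 0.29) passed the test (adjusted p = 0.0437), and at these counts the call was lost without WT replicate 2 (0.131), WT replicate 3 (0.117), cKO replicate 1 (0.0908) or cKO replicate 3 (0.133), and in DESeq2 (0.175). Human HES1 stood at 13.8, 14.9 and 14 CPM in shNC and 9.80, 8.83 and 7.86 CPM in shDDX21. It fell without overlap, by 0.68 on the log2 scale (SE 0.10, adjusted p = 1.4e-08), and the folds of the 2 experiments differed by 1.59 (SE 0.28, adjusted p = 0.000448).

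Nrarp, an ankyrin-repeat protein that Notch induces and that dampens Notch signalling, was the one mouse member whose libraries lay apart in the downward direction. It was counted 10, 4 and 3 times in WT against 2, 1 and 0 times in cKO. The ratio of the summed counts, 17 and 3, was 0.171, with an exact 95% interval from 0.032 to 0.59 for counting error only. The gene was under the count filter, and a fit without that filter gave a log2 fold change of -2.48 that did not pass (SE 0.88, adjusted p = 0.0674). The gene Gm38287 on the opposite strand overlaps 79.4% of Nrarp and was counted at 0. The strand setting is not given, so how reads in the shared part were counted is not known. The Nrarp counts are uncertain to that extent. Human NRARP was 4.60, 4.18 and 4.67 CPM in shNC and 3.29, 3.08 and 3.02 CPM in shDDX21, falling by 0.52 on the log2 scale (SE 0.17, adjusted p = 0.00663), and a gene on the opposite strand with 44 counts in all overlaps 25.3% of it. In both species Nrarp lies on the chromosome of Notch1, with 1.27 Mb between the genes on mouse chromosome 2 and 0.754 Mb on human chromosome 9.

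Hey1, a repressor of the same family as Hes1 that is active in blood vessels, was counted 3, 3 and 4 times in WT against 4, 4 and 9 times in cKO. The ratio of sums was 1.64, with an exact interval for counting error from 0.711 to 4.02. Human HEY1 was 2.70, 3 and 2.64 CPM in shNC and 2.41, 2.61 and 1.82 CPM in shDDX21. Although those groups did not overlap, the log2 fold change of -0.28 (SE 0.21) did not pass (adjusted p = 0.267).

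**Figure D4:**
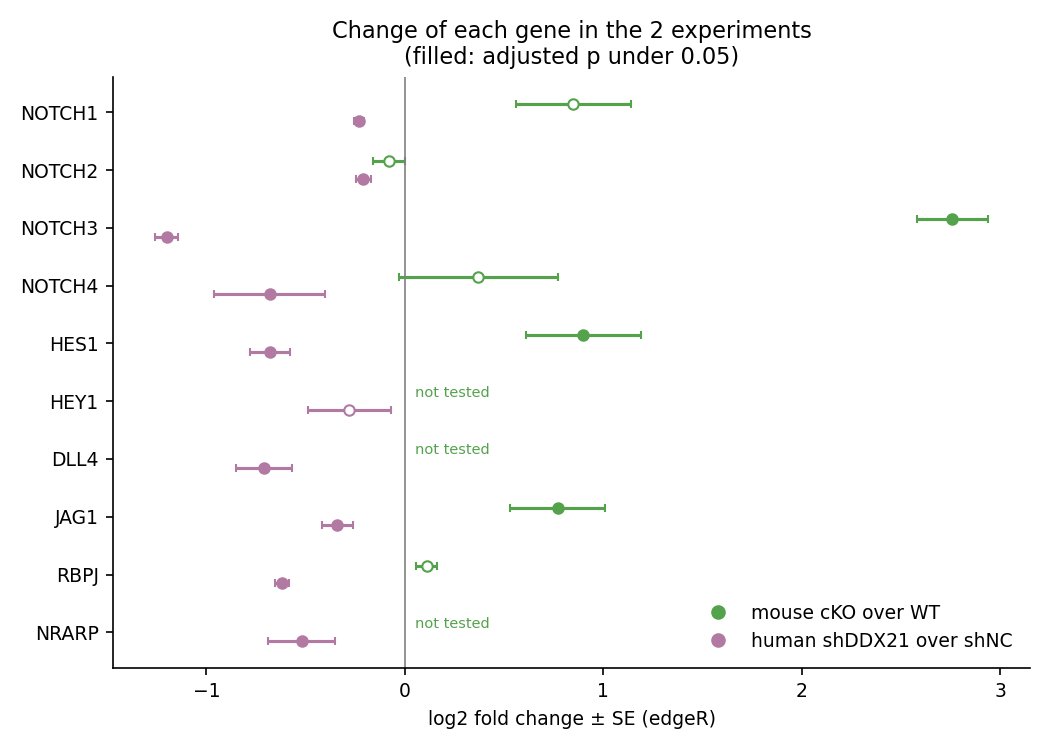
Log2 fold change with its standard error for each gene, mouse cKO over WT and human shDDX21 over shNC, with filled points at an adjusted p under 0.05. NOTCH3 has the largest value in both experiments, 2.76 and -1.20, and every human point lies below 0.

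The difference between the mouse and human log2 fold changes was tested for the 7 members that passed the count filter in both experiments. The mouse fold lay above the human fold for 5 of them, NOTCH1, NOTCH3, HES1, JAG1 and RBPJ, beside 56.2% of the 10313 genes matched by symbol that differed in either direction and 35.8% with the mouse fold above. The median difference over those genes was 0.09. The joint model takes a single spread between replicates per gene for both experiments, although the mouse libraries varied more. For JAG1 and HES1 the SE of the difference (0.21 and 0.28) was below that of the mouse fold alone (0.24 and 0.29). The mouse spread can thus be understated and the adjusted p-values of the differences too small. The comparison joins species, cell source and the way DDX21 was removed, which cannot be told apart here.

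Counting libraries without a model gave a similar picture. In mouse cells the 3 cKO values lay above all WT values for 4 of 10 members (Notch1, Notch3, Hes1 and Jag1), below for 1 (Nrarp), and overlapped for 5, beside 27.6% and 21.4% of tested genes. In human cells the shDDX21 values lay below for 9 of 10, all but NOTCH4, beside 29.5% of tested genes.

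The order of levels per length was the following. In WT mouse cells Notch2 (50.4 TPM) stood above Rbpj (26.4), Notch1 (8.37), Notch3 (2.01) and Hes1 (1.01), with no overlap between neighbours, and the other 5 members lay at 0.395 TPM or below, each overlapping its neighbour. In cKO the top ranks were Notch2 (50.5 TPM), Rbpj (30.3), Notch1 (16.0) and Notch3 (14.5), and the last pair overlapped. In shNC cells the order was NOTCH1 (84.0 TPM), RBPJ (36.5), HES1 (26.0), NOTCH2 (21.9) and NOTCH3 (21.4), of which the last pair overlapped, followed by JAG1 (8.62), NRARP (6.38), DLL4 (5.20), HEY1 (1.90) and NOTCH4 (0.756). In shDDX21 cells NOTCH3 stood at 8.42 TPM, clear of NOTCH2 at 16.9 TPM, and the remaining ranks differed only in that NOTCH2 came before HES1 (14.4 TPM). HES1 thus stood at 26.0 TPM in human control cells and at 1.01 TPM in mouse WT cells, as values set side by side across species.

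Beyond the 10 members, 57 other pathway genes were listed by role. In the mouse 55 were found and 43 tested, of which 5 were higher and 7 lower, beside the 36.5% of all tested genes called. The split was 3 and 10 with relative-log-expression scaling, 3 and 12 in DESeq2, 9 and 7 with total counts, and 6 and 14 with the GC offset. Over all mouse genes it was 2912 and 2583, 2318 and 2176, 3565 and 1612, and 3411 and 3558 in that order. In the human cells 49 were found and 48 tested, of which 16 were higher and 13 lower (13 and 16 with total counts), beside the 52.7% of all tested genes called. Their median log2 fold changes were 0.00 in the mouse and -0.04 in the human cells, beside 0.77 and -0.57 for the members.

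Upstream of the receptors, the ligand Jag2 rose in mouse cells from 4.44, 4.58 and 1.44 CPM to 13.9, 5.79 and 8.84 CPM (log2 fold change 1.45, adjusted p = 0.0409), 1 of 2 ligands tested. Its call was lost without WT replicate 1, 2 or 3 or cKO replicate 1 or 3 (adjusted p from 0.0586 to 0.0966). In human cells JAG2 fell (-0.53) and DLK1, an atypical ligand, rose slightly (0.08), with 3 tested. Of the 5 enzymes that put sugars on the receptors, Lfng, a Fringe that tunes which ligand a receptor answers, fell in the mouse (-0.94), as did Pofut1 (-0.26), while Poglut1 rose (0.67). The call for Lfng was lost without WT replicate 1 (0.0581), WT replicate 2 (0.0614) or cKO replicate 3 (0.0692). In human cells LFNG also fell (by 1 on the log2 scale), and RFNG (0.40) and MFNG (0.18) rose. The counts were 3 higher and 1 lower of 5, beside 25.3% and 27.4% of all tested human genes.

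Of the 9 genes for receptor cleavage, 5 rose and none fell in human cells. Of all tested human genes, 25.3% were called higher and 52.7% in either direction. The 5 included the convertase FURIN (0.45) and the gamma-secretase subunit gene APH1A (0.21). In the mouse 1 rose, the subunit gene Ncstn (0.20), a call lost without WT replicate 1 or 2 or cKO replicate 2 or 3 (adjusted p from 0.0747 to 0.1). Of 10 genes for trafficking and turnover, the ubiquitin ligase gene Dtx4 fell in the mouse (-1.19) and Mib1, which activates ligands, rose (0.16). The Mib1 call was lost without WT replicate 1 or 2 or cKO replicate 2 or 3 (0.0599 to 0.0943). In human cells 2 rose and 3 fell, beside 25.3% and 27.4% of all tested human genes, with DTX3 at 1.06, MIB2 at 0.37 and NUMBL at -0.55.

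Of 12 nuclear cofactors, 4 fell and none rose in the mouse, a share called near the 36.5% of all tested genes (15.8% lower), including Spen (-0.56), a corepressor that binds RBPJ, the coactivator gene Maml1 (-0.30) and the acetyltransferase gene Ep300 (-0.22). The calls for Spen and Maml1 were lost without WT replicate 1, WT replicate 2 or cKO replicate 3 (0.0537 to 0.0646 and 0.0602 to 0.067). In human cells 3 rose and 5 fell, beside 25.3% and 27.4% of all tested human genes, with SPEN at -0.29, CREBBP at -0.48 and TLE3 at -0.56. Of the other targets, Ccnd1, which encodes cyclin D1, rose in the mouse from 19.2, 21.5 and 18.6 to 62.6, 61.2 and 61.9 CPM (1.65, SE 0.069, adjusted p = 5.31e-06), 1 of 5 tested. In human cells MYC (-1.17), HES6 (-1.24) and HEYL (-0.98) fell and 2 of the 9 targets rose. The HEYL call was lost without shNC replicate 3 (0.0781) or shDDX21 replicate 1 (0.0983).

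**Figure D5:**
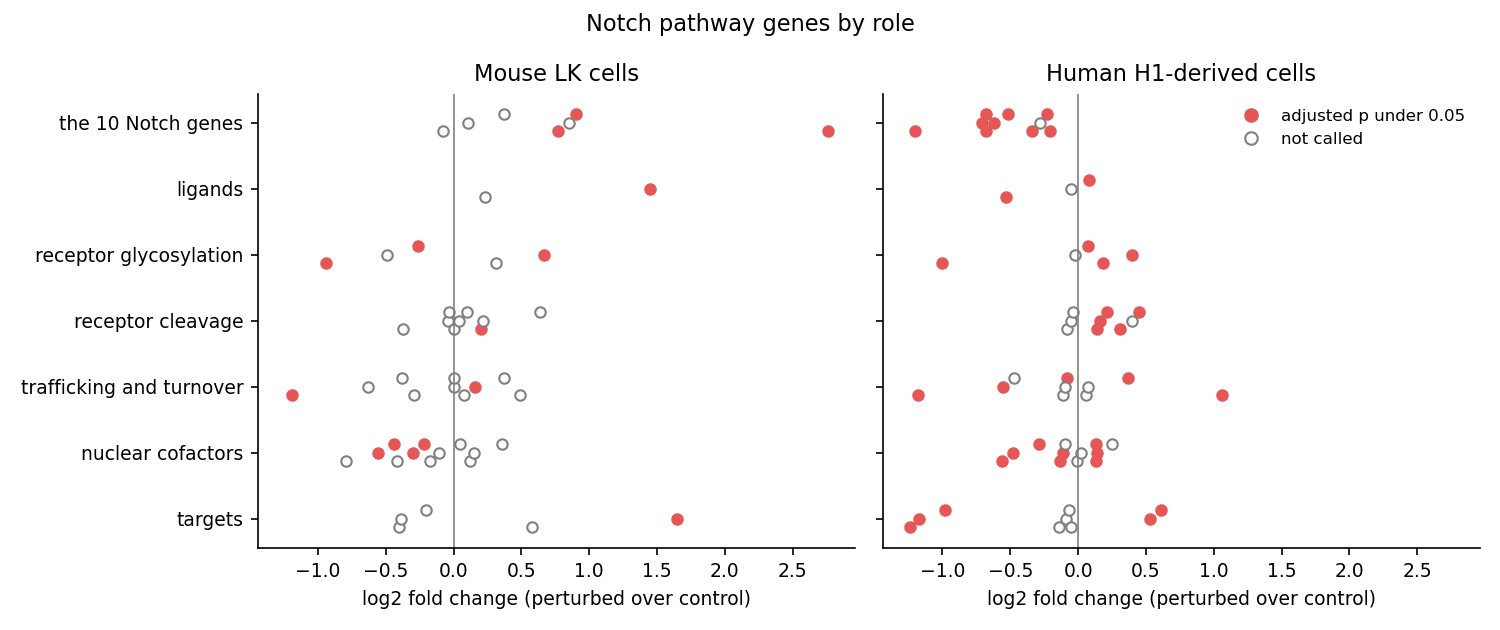
Log2 fold change of each tested pathway gene by role, mouse on the left and human on the right, with filled points at an adjusted p under 0.05. Of the 7 members tested in the mouse 6 lie right of 0 (median 0.77 over the 7), and all 10 human members lie left of 0 (median -0.57).

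Genes listed as markers of other cell types differed between the mouse groups too. Whether the LK cells themselves or other cells expressed them was not tested. In bulk RNA fewer cells of a type and less RNA per cell cannot be told apart. The summed level of 15 endothelial markers was 115.0 to 137.8 CPM in WT and 186.9 to 223.4 CPM in cKO. Of 13 tested, 8 were higher and none lower, beside 20.7% and 15.8% of all tested mouse genes. Pecam1 (0.43) and Erg (1.01) were among the 8, and Egfl7 was not (-0.13, adjusted p = 0.746). Cldn5 and Sox17, markers of endothelium, had 0 counts in all 6 libraries, and Cdh5, named after its values were seen, was at 0.186 to 0.628 CPM in WT and 0.952 to 1.31 CPM in cKO. Hepatocyte markers were 10.7 to 12.4 CPM in WT and 42.0 to 47.0 CPM in cKO, with all 5 tested higher (Alb 4.83, Afp 4.07, Trf 0.45). Trf alone was at 9.33 to 10.5 CPM in WT and 13.2 to 14.1 CPM in cKO. Most of the WT sum was thus Trf. Mean levels rose from 0.417 to 12.1 CPM for Alb and from 0.857 to 14.4 CPM for Afp. Stromal markers were 10.9 to 14.9 against 16.3 to 22.6 CPM, with Col1a2 (1.65) higher and Pdgfrb (-0.13) not called, and Cspg4 at 0 throughout.

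Among blood markers, lymphoid genes stood at 26.6 to 29.0 CPM in WT and 6.35 to 7.88 CPM in cKO. Of 8 tested, 6 were lower (Rag1 -2.86, Pax5 -1.95, Il7r -2.09) and 1 higher, beside 15.8% and 20.7% of all tested mouse genes. Macrophage genes were 2.65 to 3.31 CPM in WT and 1.34 to 2.00 CPM in cKO, with Adgre1 (-1.12) lower and Vcam1 (-0.80) not called, and C1qc at 0 throughout. Genes of progenitor identity were abundant in every library, 1997 to 2030 CPM in WT and 2081 to 2105 CPM in cKO, with 3 higher and 3 lower of 10 (Kit -0.19, Spn -0.14, Myb 0.12 not called). The part of these cell types in the Notch3, Hes1 and Jag1 differences was not tested.

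In the human cells endothelial markers were abundant and lower with the hairpin, 2246 to 2301 CPM in shNC and 1924 to 1943 CPM in shDDX21. Of 15 tested, 4 were higher and 8 lower, beside 25.3% and 27.4% of all tested human genes (TIE1 0.07, KDR -0.31, PECAM1 -0.01 not called). Progenitor genes were 2830 to 2868 against 2982 to 3019 CPM (4 higher and 5 lower of 9, with TAL1 0.54, GATA2 -1.12 and SPN 0.35). Lymphoid genes were 37.2 to 40.1 against 17.4 to 17.7 CPM (1 higher and 1 lower of 6, with IL7R -2.32, CD3G 0.71 and RAG1 0.06 not called, and a list median of 0.37); IL7R alone was at 28.5 to 30.4 CPM in shNC and 5.64 to 5.95 CPM in shDDX21. Macrophage genes were 57.6 to 64.9 against 41.9 to 43.3 CPM (4 of 5 lower, with C1QC -0.46, C1QB -1.10 and CLEC4F -0.46). Stromal genes were 178.7 to 184.1 against 184.6 to 191.5 CPM (2 higher and 5 lower of 7, with PDGFRB -0.31, COL1A2 0.44 and ACTA2 0.48), and the 1 hepatocyte marker found, TF, was lower (-0.48). The part of these changes in the lower Notch gene levels was not tested.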

How the data were processed

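The authors' deposited tables hold raw gene counts, with each gene's exon length, and a normalized signal with log2 ratios of each library to the control mean; the normalized signal equals the counts divided by one constant per library, and only the counts, lengths and symbols were used. The submitters' processing notes list STAR, featureCounts and DESeq2 and the builds mm10 and hg38, without roles or versions; strand setting is not given in the sources used here.

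Counts were tested per experiment with edgeR 4.0.16 (R 4.3.3): filterByExpr, TMM scaling, glmQLFit and glmQLFTest, 2-sided, with Benjamini-Hochberg adjustment over all tested genes and a threshold of 0.05. Both experiments were joined in an interaction model over 10313 genes matched by symbol, with each gene's spread pooled over the mouse and human libraries. A standard error is the log2 fold change divided by the square root of F. Exact 95% intervals of summed counts cover counting error only. On simulated counts the test recovered 182 of 200 genes changed 2-fold in the mouse design (14616 genes, 15 false calls) and 198 of 200 in the human design (19693 genes, 15 false calls); the changed genes had a mean count of at least 50.

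All members were named, as were the targeted gene, up to 3 called genes of smallest p in each other pathway list, and the 3 most abundant tested genes of each marker list; 1 gene that the rule names is not reported here. Members and lists were chosen with earlier results of these data known. Alternatives were other scalings, filters, DESeq2 1.42.0, a 2-fold minimum, a replicate block, leaving out each library, and a GC offset (loess span 0.3, mouse only) chosen after seeing the data. Promoter sequences and transcript starts are from RefSeq.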

Additional observations from a re-analysis of the deposited data

Results flagged for a closer look

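The log2 fold changes of mouse cKO over WT and human shDDX21 over shNC differed, by the interaction test in edgeR, for several Notch genes. The mouse fold was above the human fold by 1.09 for NOTCH1, 3.95 for NOTCH3, 1.59 for HES1, 1.10 for JAG1 and 0.73 for RBPJ. Among other pathway genes it was above by 1.97 for JAG2, 0.70 for POGLUT1, 0.25 for NCSTN, 0.23 for MIB1, 1.04 for NUMBL, 0.31 for CREBBP, 0.45 for TLE3, 1.04 for HES6, 1.69 for CCND1 and 0.77 for MYC. The mouse fold was below, with differences of -0.90 for RFNG, -0.32 for POFUT1, -0.20 for APH1A, -1 for MIB2, -1.36 for DTX3 and -0.54 for MAML1. Of the cell type markers, the mouse fold was above by 0.44 for PECAM1, 1.14 for TIE1, 2.35 for ERG, 1.22 for COL1A2, 1.63 for GATA2 and 0.73 for MYB, and the differences were -2.92 for RAG1, -0.32 for KIT, -0.49 for SPN and -0.80 for TAL1. Such differences were common, since 56.2% of the matched genes showed one, and species, cell source and the way DDX21 was removed cannot be told apart in them. The differences for APH1A and TLE3 lost their call in 9 alternatives each of 15.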

How the results depend on the processing

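Notch3 in the mouse kept its direction and call in all 15 alternatives, from 2.60 to 3.02. Of the 33 alternative values of members that lost their call, 18 were in the mouse and 15 in the human experiment. In the mouse, DESeq2 called 1 member and the 2-fold minimum 1, against 3, and leaving out 1 library gave 1 to 3. The 2-fold minimum left 1354 mouse genes, 1450 human genes, 1 human member, and 3 mouse and 4 human genes of the wider pathway. Leaving out 1 library gave 5 to 19 mouse genes of the wider pathway, and the GC offset 20, against 12. Over all mouse genes the same settings gave 3717 to 5671 and 6969, against 5443. Notch2 in the mouse, at -0.08, ranged from -0.15 to 0.00 with 1 library left out, the latter without cKO replicate 2. The cause was not tested. Hes1 and Jag1 in the mouse had an adjusted p of 0.175 and 0.24 in DESeq2 and of 0.0572 and 0.0731 without the filter, and NOTCH4 in the human cells 0.12 in DESeq2, 0.0585 with upper-quartile scaling and 0.0568 without the filter. Notch1 in the mouse passed with 3 other scalings, at 0.0438, 0.0269 and 0.0292. The 5 interaction calls among members held in all 15 alternatives each, but every one of these pooled the spread of the mouse and human libraries.

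Deviations from the group means of same-numbered libraries correlated at 0.316, -0.177 and 0.0131 in the mouse and at -0.0138, -0.00238 and -0.000862 in the human experiment. Libraries of different numbers were not compared, so whether replicate numbers pair the libraries was not tested. With the replicate block 5166 mouse genes and 2 mouse members, 10601 human genes and 9 human members, and 5721 interactions were called; the mouse members then called were Notch1 (adjusted p = 0.0262) and Notch3, and Hes1 (0.0557) and Jag1 (0.085) were not. Depth limits Notch4, Hey1, Dll4 and Nrarp in the mouse, with 20 to 53 counts over 6 libraries.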
